A study of Mus musculus with 6 samples.

Results

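The genes of cholesterol and fatty acid synthesis were followed as a group of 36 genes, chosen by gene symbol and found in all 6 single-cell libraries among the 56884 genes listed there. Of these, 18 encode enzymes of the mevalonate and sterol pathway from Acat2 to Dhcr7, and 5 regulate sterol synthesis or carry sterol inside the cell (Srebf1, Srebf2, Insig1, Insig2 and Stard4). A further 5 make palmitate and its precursors (Acly, Acss2, Acaca, Fasn and Me1), and 8 desaturate, elongate or activate fatty acids (Scd1, Scd2, Fads1, Fads2, Elovl1, Elovl5, Elovl6 and Acsl3). The libraries were made with BD Rhapsody, a microwell system that reads the 3' ends of transcripts and counts each captured molecule once by a unique molecular identifier (UMI). Each library was 1 pool of 2 mice, and there was 1 library per genotype: the lungs, taken at postnatal day 21, came from Bdnf lox/lox controls and Bdnf iPCKO mutants and from Hgf lox/lox controls and Hgf iPCKO mutants, and the cortices, taken at postnatal day 12, from Nodal lox/lox controls and Nodal iPCKO mutants. iPCKO stands for an inducible knockout in pericytes and other mural cells, in which the floxed gene is deleted by a tamoxifen-activated Cre recombinase driven by a Pdgfrb transgene, Pdgfrb(BAC)-CreERT2. Controls were littermates labelled only by their floxed alleles (lox/lox), and the labels give the same tamoxifen treatment, 50 µg on each of postnatal days 1 to 3, for the control and iPCKO libraries. Cells with CD45 on their surface (leukocytes) and erythrocytes were depleted from the lung suspensions, and myelin debris from the cortical ones. Because each genotype was measured in 1 library, a difference between control and iPCKO has no replicate check here, and no p-value is given for it. Mouse, dissection and library cannot be told apart from genotype. Although controls were littermates, the labels do not give the litter of each pooled mouse.

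Cells make cholesterol from acetyl-CoA through mevalonate and squalene, and they make fatty acids from the same acetyl-CoA through malonyl-CoA. Both routes are under SREBP transcription factors (encoded by Srebf1 and Srebf2), which are held in the endoplasmic reticulum by Insig proteins while sterol is plentiful and travel to the nucleus when sterol runs low. In the lung, alveolar type 2 (AT2) cells secrete surfactant, a mixture of proteins and lipids rich in saturated phosphatidylcholine, and in the brain, astrocytes supply cholesterol to neurons because lipoproteins of the blood do not cross the blood-brain barrier.

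Barcodes with at least 1500 UMIs (at least 700 in the Hgf libraries, which were less deep) were taken as cells, which left 17155 and 24311 barcodes in the Bdnf control and iPCKO libraries, 14623 and 16156 in the Hgf libraries, and 3237 and 5009 in the Nodal libraries. Between 76.9% and 91.6% of them were assigned to 1 cell type by fixed marker genes. The AT2-like class held 6027 and 6956 cells in the Bdnf control and iPCKO libraries and 5690 and 3880 cells in the Hgf control and iPCKO libraries. All 8 AT2 markers, among them Sftpc and Sftpb, were detected in it, at a summed level of 113365 and 107887 CPM (UMIs per 1000000 UMIs of the cells of that type in the library) in the Bdnf control and iPCKO libraries and of 121572 and 94284 CPM in the Hgf ones. The libraries differed in depth: the median AT2-like cell had 8551 UMIs in the Bdnf control, 5960 in the Bdnf iPCKO, 4729.5 in the Hgf control and 3591 in the Hgf iPCKO library. Mitochondrial genes took 12.1% to 15.3% of the UMIs in AT2-like cells, and the share of UMIs estimated to come from free RNA in the suspension was 3.65% to 4.91%.

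Promoters of some members named below are shown first. In the RefSeq tables (GRCm38.p6), 29 of the 36 genes had an entry, with 38 start sites. Scd1, Scd2, Fads1, Fdft1, Fdps, Sqle and Stard4 had no entry and could not be searched. The CCAAT box, which NF-Y binds and which often stands beside SREBP sites, is written CCAAT or, on the other strand, ATTGG, and it was found in the 250 bases before a start site of 24 of the 29 genes (82.8%). Of all 27025 genes with an entry, 37.5% held it, and of 11800 genes with at least 50 UMIs in AT2-like cells, 40.4%. Counted by start site, it was found for 25 of the 38 (65.8%), beside 33.8% of all start sites. The sterol response element TCACNCCAC, searched on both strands, was found in 1 of the 29 genes (3.45%), Hmgcs1, 137 bases before its start, and in 1.22% of all genes. The E-box CACGTG was found in 5 of the 29 genes (17.2%), Insig1 among them, and in 6.86% of all genes. The first window of Hmgcs1 is shown for its sterol response element, Insig1 because the 2 lung pairs differed in it, Elovl1 because it was lower in both iPCKO libraries, Tm7sf2 for its low level in the Hgf iPCKO library, and Pmvk because it was higher where most members were lower. Elovl1 and Pmvk each have another start site, whose window held no CCAAT box and is not shown. Capitals mark the CCAAT box on either strand and, in Hmgcs1, also the sterol response element; each sequence is given 5' to 3' on the strand of its gene.
Hmgcs1, chr13:119690101-119690350, plus strand: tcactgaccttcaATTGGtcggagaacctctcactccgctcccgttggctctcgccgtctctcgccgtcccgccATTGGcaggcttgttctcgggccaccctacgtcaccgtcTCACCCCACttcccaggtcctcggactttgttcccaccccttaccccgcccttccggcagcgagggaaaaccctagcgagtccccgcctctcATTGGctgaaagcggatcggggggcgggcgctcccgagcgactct
Insig1, chr5:28071162-28071411, plus strand: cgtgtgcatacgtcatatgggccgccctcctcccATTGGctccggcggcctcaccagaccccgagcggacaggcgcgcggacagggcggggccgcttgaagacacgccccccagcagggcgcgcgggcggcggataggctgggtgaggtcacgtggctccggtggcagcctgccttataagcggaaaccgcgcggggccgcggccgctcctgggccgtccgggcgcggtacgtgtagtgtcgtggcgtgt
Elovl1, chr4:118427843-118428092, plus strand: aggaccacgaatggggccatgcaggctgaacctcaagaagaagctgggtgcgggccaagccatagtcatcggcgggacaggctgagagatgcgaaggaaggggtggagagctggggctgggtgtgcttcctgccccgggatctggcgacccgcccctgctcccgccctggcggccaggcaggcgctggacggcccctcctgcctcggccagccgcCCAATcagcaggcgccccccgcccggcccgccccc
Tm7sf2, chr19:6067851-6068100, minus strand: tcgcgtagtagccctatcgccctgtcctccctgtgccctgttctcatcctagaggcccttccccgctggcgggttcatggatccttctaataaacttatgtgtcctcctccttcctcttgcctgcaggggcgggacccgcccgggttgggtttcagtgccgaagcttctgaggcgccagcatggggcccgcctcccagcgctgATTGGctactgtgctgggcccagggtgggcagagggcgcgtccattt
Pmvk, chr3:89454291-89454540, plus strand: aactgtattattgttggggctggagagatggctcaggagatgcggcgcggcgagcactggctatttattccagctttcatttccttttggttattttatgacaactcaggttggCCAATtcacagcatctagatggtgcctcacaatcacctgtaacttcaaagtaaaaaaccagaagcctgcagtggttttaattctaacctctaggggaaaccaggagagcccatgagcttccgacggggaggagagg
A match of letters is a description and not a binding site, and no factor's binding was measured here. The promoter positions above are in GRCm38.p6, whereas the gene positions given below are in GRCm39, so they cannot be compared directly.

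In all 4 lung libraries, AT2-like cells had a higher summed CPM of these genes than any other cell type, and alveolar type 1 (AT1)-like cells came next. The summed level of the 36 genes in AT2-like cells was 10135 CPM in the Bdnf control, 6892 in the Bdnf iPCKO, 21189 in the Hgf control and 11482 in the Hgf iPCKO library. In AT1-like cells it was 4218, 3505, 4439 and 5045 CPM in the same order. The groups thus did not overlap. The rest of the lung cell types lay between 1003 and 2192 CPM. In AT2-like cells 1 gene made most of the sum: Scd1 (stearoyl-CoA desaturase 1, which puts the first double bond into stearate and palmitate; GRCm39 chromosome 19, bases 44382894 to 44399154) supplied 55.6%, 48.8%, 72.3% and 59.1% of the members' UMIs. Its neighbour Scd2 (chromosome 19, bases 44281613 to 44295303) supplied 68.7%, 59.9%, 60.2% and 56.7% of them in AT1-like cells. Without Scd1 the sums in AT2-like cells were 4496, 3529, 5875 and 4695 CPM, close to those of AT1-like cells without it, 4177, 3459, 4319 and 5003 CPM. Without both desaturases, AT2-like cells were again above AT1-like cells in every library, at 3384, 2729.7, 4761 and 3689 CPM against 1282, 1359.8, 1647 and 2140.2 CPM.

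**Figure D1:**
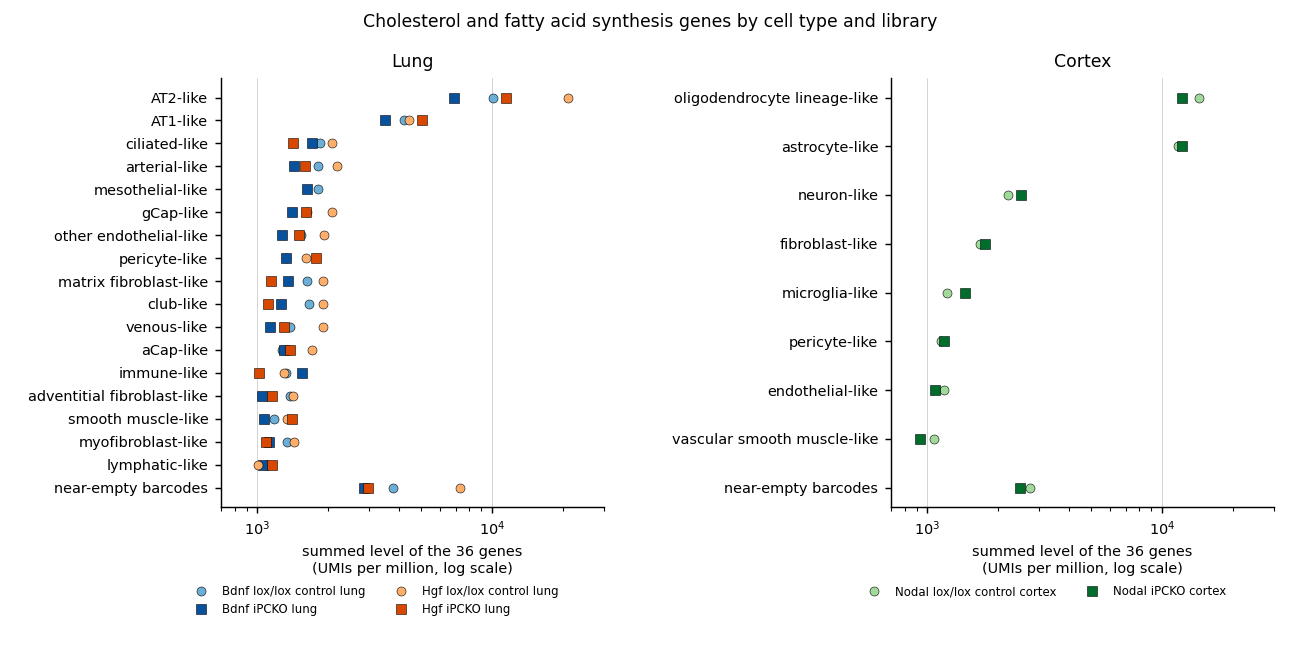
Summed level of the 36 genes (CPM, log axis) by cell type, lung cell types in one panel and cortical cell types in the other, with 1 point per library. AT2-like cells lead in every lung library (6892 to 21189 CPM), and oligodendrocyte lineage-like and astrocyte-like cells lead in both cortical libraries.

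The difference between cell types was tested across all genes with the library as a block, the 4 lung libraries serving as replicates. Against general capillary (gCap)-like endothelial cells, 33 of the 36 genes were higher in AT2-like cells and 2 were lower, at a median log2 fold of 2.48 (0.03 over all genes), where 33.8% of all genes tested were higher and 29.0% lower. Against AT1-like cells, 30 were higher and 3 lower (median 2.26; all genes 0.02), beside 27.6% and 23.5% of all genes. Against matrix fibroblast-like cells, 31 were higher and 2 lower (median 2.29; all genes 0.13), beside 27.2% and 19.9% of all genes. The 33 include Ebp and the 31 include Insig2, whose direction depends on the scaling (below 0 by plain CPM in 4 of 4 libraries for Ebp, and a mean of -0.01 for Insig2). The scaling used by the test (TMM) placed AT2-like cells higher than plain CPM does, by 0.34 on the log2 scale against AT1-like, 0.53 against gCap-like and 0.52 against matrix fibroblast-like cells.

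Scd1 and Fasn had the largest folds against gCap-like cells. Fasn (fatty acid synthase, which builds palmitate) was at 388, 313, 638 and 448 CPM in AT2-like cells and at 5.78, 6.71, 11.1 and 7.51 CPM in gCap-like cells of the Bdnf control, Bdnf iPCKO, Hgf control and Hgf iPCKO libraries, a log2 fold of 6.37 (SE 0.15, adjusted p = 2.0e-07, higher in 4 of 4 libraries). Scd1 was at 5639, 3363, 15314 and 6787 CPM in AT2-like cells and at 57.5, 55.9, 189.8 and 63.3 CPM in gCap-like cells (log2 fold 6.93, SE 0.20, adjusted p = 2.0e-07). The level that free RNA alone would give in gCap-like cells was 58.7, 41.4, 188 and 41.2 CPM, so most of the Scd1 counted there was at the level of free RNA. For Fasn it was 4.31, 3.88, 7.84 and 3.13 CPM, also a large part of the count there, so the folds of both genes against gCap-like cells are set in part by this background. Me1 (malic enzyme, a source of NADPH for lipid synthesis) was 4.33 higher on the log2 scale (SE 0.30, adjusted p = 6.6e-06), Lss (lanosterol synthase) 3.90 (SE 0.18, adjusted p = 8.1e-07) and Fdps (farnesyl diphosphate synthase) 3.71 (SE 0.22, adjusted p = 2.5e-06).

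A few members went the other way. Elovl5, an elongase of polyunsaturated fatty acids, was at 169, 131, 225 and 231 CPM in AT2-like cells, at 439.6, 338, 595 and 723 CPM in gCap-like cells and at 475, 499.6, 586 and 1082 CPM in AT1-like cells. It was lower in AT2-like than in gCap-like cells by a log2 fold of -0.92 (SE 0.10, adjusted p = 1.2e-04) and lower than in AT1-like cells by -1.42 (SE 0.16, adjusted p = 1.3e-04), but higher than in matrix fibroblast-like cells by 2.26 (SE 0.20, adjusted p = 6.8e-13). Scd2 was lower in AT2-like than in AT1-like cells (-1.05, SE 0.11, adjusted p = 1.2e-04), at 1112, 799, 1115 and 1006 against 2895, 2099, 2672 and 2863 CPM, and higher than in gCap-like cells (3.47, SE 0.16, adjusted p = 6.8e-07). Elovl6, which lengthens palmitate to stearate, was nearly absent from AT2-like cells, with 34, 34, 8 and 8 UMIs, and was lower there than in gCap-like cells (-2.50, SE 0.39, adjusted p = 7.1e-04) and matrix fibroblast-like cells (-5.87, SE 0.33, adjusted p = 3.3e-21). Ebp (the sterol isomerase emopamil binding protein) was lower than in AT1-like cells (-1.0, SE 0.17, adjusted p = 0.0014). Against gCap-like cells it was called higher with TMM (0.40, adjusted p = 0.0072) while its plain CPM was lower in 4 of 4 libraries, so no direction is given for it. Sc5d (lathosterol oxidase) was lower than in matrix fibroblast-like cells (-0.70, SE 0.17, adjusted p = 4.0e-04).

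Members that did not pass the test were Stard4, a sterol carrier, against gCap-like cells (-0.49, adjusted p = 0.087), Elovl6 (0.39, adjusted p = 0.59), Hsd17b7 (0.40, adjusted p = 0.05) and Insig2 (0.20, adjusted p = 0.16) against AT1-like cells, and Acsl3 (-0.37, adjusted p = 0.13), Fads2 (0.16, adjusted p = 0.55) and Ebp (0.25, adjusted p = 0.33) against matrix fibroblast-like cells. Of the regulators, Srebf1, Srebf2 and Insig1 were higher in AT2-like than in gCap-like cells: the log2 fold was 3.26 for Srebf1 (SE 0.11, adjusted p = 2.5e-07), 2.20 for Srebf2 (SE 0.34, adjusted p = 9.1e-04) and 3.03 for Insig1 (SE 0.39, adjusted p = 3.6e-04). Insig2 was also among the members called higher there with the scaling of the test.

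**Figure D2:**
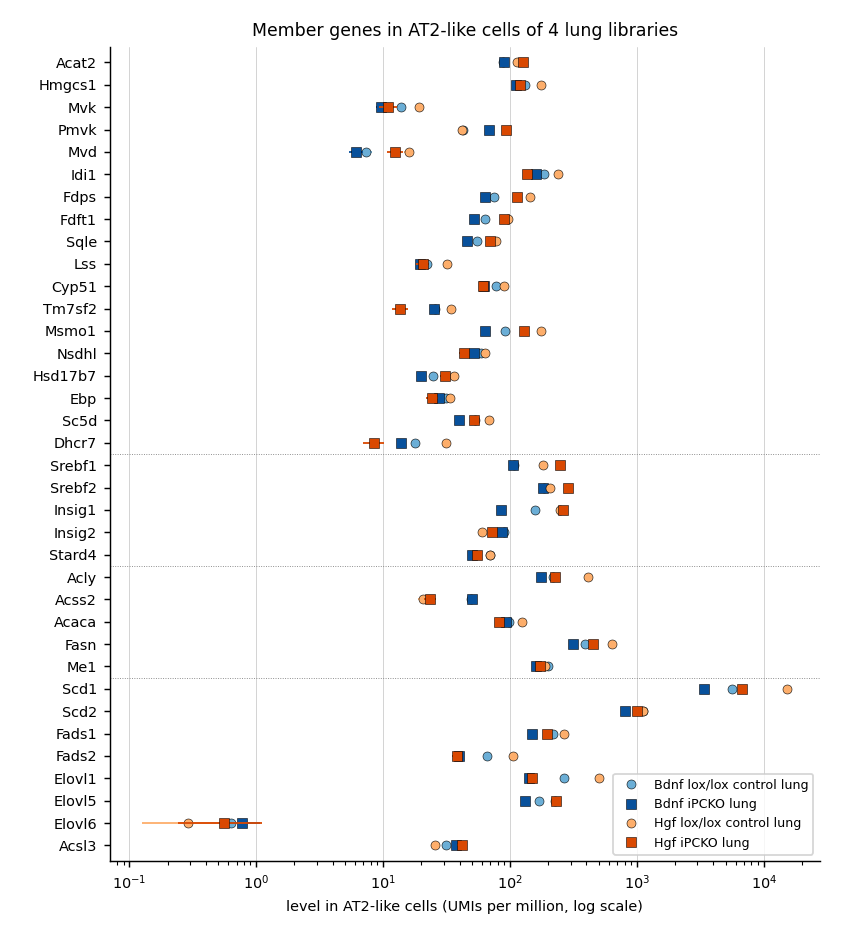
Level of each of the 36 genes in AT2-like cells (CPM, log axis) in the 4 lung libraries, with 95% Poisson intervals of counting error, ordered by role with dotted lines between roles. Scd1 lies between 3363 and 15314 CPM, and Elovl6 is below 1 CPM in every library.

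Within AT2-like cells, most of the 36 genes were lower in iPCKO than in control libraries of both lung pairs. All ratios are log2 of iPCKO over control CPM, with the exact 95% interval of counting error, and members with at least 50 UMIs in a pair were counted. In the Bdnf pair, 31 of 36 members were below 0 and 5 above, with a median of -0.28, where the median of 17423 genes was 0.02. Past 1.5-fold (0.58 on the log2 scale) were 4 members lower and 1 higher, beside 3.35% of all genes lower and 9.17% higher. Among cells of 3000 to 6000 UMIs, 3 of 35 members were lower (Elovl1, Insig1 and Msmo1, but no longer Scd1 and Fads2) and 1 higher, beside 4.42% and 6.88%. In the Hgf pair, 26 of 35 members were below 0 and 9 above, with a median of -0.39, where the median of 14091 genes was -0.02. Here 10 members were past 1.5-fold lower and 2 higher, beside 16.1% of all genes lower and 13.2% higher. With AT2-like cells taken from Leiden clusters instead of marker gates, 16 were lower and 1 higher in the Hgf pair, beside 13.3% and 19.3% of all genes. The summed AT2 markers given above were also lower in each iPCKO library, and their part in the members' ratios was not tested. Across both pairs, 26 of the 36 genes were below 0 in each, 5 were above 0 in each, and 5 had opposite signs. The matching share over all genes was not counted, so these counts stand without a background.

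Among the desaturases and elongases, Scd1, at 5639 CPM in the Bdnf control and 3363 in the Bdnf iPCKO library, had a log2 ratio of -0.75 (interval -0.75 to -0.74), which was -0.38 among cells of 3000 to 6000 UMIs. In the Hgf pair it was at 15314 CPM in the control and 6787 in the iPCKO library (-1.17, interval -1.18 to -1.16). Both iPCKO libraries were thus below their own control, yet the Hgf iPCKO library was above the Bdnf control. Elovl1 (an elongase of very long-chain saturated fatty acids; chromosome 4, bases 118284346 to 118290150) was at 268 and 140.0 CPM in the Bdnf pair (-0.94, interval -0.98 to -0.90) and at 505 and 148 CPM in the Hgf pair (-1.77, interval -1.83 to -1.70). Its iPCKO libraries were both below both controls. Fads2 (delta-6 desaturase; chromosome 19, bases 10038130 to 10079203) was at 65.4 and 39.6 CPM in the Bdnf pair (-0.72, interval -0.81 to -0.64) and at 106 and 38.4 CPM in the Hgf pair (-1.47, interval -1.61 to -1.34). It showed the same order as Elovl1, with both iPCKO libraries below both controls. How many of all genes showed this order was not counted. Fads1 (delta-5 desaturase) was at 217 and 149.8 CPM in the Bdnf pair (-0.54) and at 265 and 197 CPM in the Hgf pair, and Scd2 was at 1112 and 799 CPM (-0.48) and at 1115 and 1006 CPM (-0.15). Acsl3, a ligase that activates fatty acids, went the other way, at 31.1 and 37.8 CPM in the Bdnf pair (0.28) and at 25.6 and 41.7 CPM in the Hgf pair (0.70, interval 0.54 to 0.86). The 8 genes of this role had a median of -0.51 in the Bdnf pair, and the 7 with enough UMIs had -0.43 in the Hgf pair.

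Of the 18 sterol enzymes, 16 were below 0 in each pair, with medians of -0.25 (Bdnf) and -0.46 (Hgf). The share of all genes below 0 was not counted. Past 1.5-fold lower were none in the Bdnf pair and 5 in the Hgf pair, beside 3.35% and 16.1% of all genes. Dhcr7, which makes the last step to cholesterol (chromosome 7, bases 143376740 to 143402149), was at 17.7 and 13.9 CPM in the Bdnf pair (-0.35) and at 31.1 and 8.41 CPM in the Hgf pair (-1.89, interval -2.18 to -1.61). Tm7sf2, a sterol reductase (chromosome 19, bases 6112851 to 6118403), was at 25.8 and 25.0 CPM (-0.05) and at 34.0 and 13.7 CPM (-1.32, interval -1.55 to -1.09). For both genes the Hgf iPCKO library was the lowest of the 4. Mvk (mevalonate kinase) was at 13.9 and 9.68 CPM (-0.52) and at 19.3 and 10.9 CPM (-0.82, interval -1.09 to -0.56). Idi1 (isopentenyl diphosphate isomerase) was at 187 and 160.4 CPM in the Bdnf pair and at 238 and 136 CPM in the Hgf pair (-0.81, interval -0.88 to -0.74). Msmo1 (methylsterol monooxygenase) was at 91.6 and 63.3 CPM (-0.53) and at 176 and 130.1 CPM. Each of these was lower in the iPCKO library of its pair. The exception in the pathway was Pmvk (phosphomevalonate kinase; chromosome 3, bases 89361758 to 89376323), at 42.6 CPM in the Bdnf control and 68.7 in the Bdnf iPCKO library (0.69, interval 0.61 to 0.77) and at 41.5 CPM in the Hgf control and 93.6 in the Hgf iPCKO library (1.17, interval 1.06 to 1.29). Both iPCKO libraries were above both controls, an order whose share over all genes was not counted. Acat2, the other sterol enzyme above 0, was at 87.3 and 89.2 CPM and at 113 and 127 CPM, and it may share reads with Tcp1, which it overlaps, and with its paralogue Acat3, although 0.896% of its UMIs lay in entries that were not whole. For Scd1, Fdft1 and Fdps this share was 8.02%, 9.78% and 6.90%, so reads shared with other genes leave some doubt on their levels.

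The genes that regulate sterol synthesis did not move as one group. Insig1 (an anchor of SREBP in the endoplasmic reticulum and itself an SREBP target; chromosome 5, bases 28276315 to 28283668) was at 158 and 84.4 CPM in the Bdnf pair, a log2 ratio of -0.90 (interval -0.96 to -0.85), and at 247 and 262 CPM in the Hgf pair, a ratio of 0.09 (interval 0.03 to 0.15) that turned to -0.17 with Leiden clusters. Srebf1 was at 107 and 106 CPM (-0.02) and at 180.4 and 249 CPM (0.47), and Srebf2 was at 187 and 181 CPM (-0.05) and at 207 and 285 CPM (0.46). Srebf1 and Srebf2 were thus highest in the Hgf iPCKO library, in which most enzymes were below the Hgf control. Insig2 was at 90.1 and 87.0 CPM and at 60.4 and 71.9 CPM, and Stard4 was at 70.2 and 50.3 CPM (-0.48) and at 69.2 and 55.3 CPM. The median of the 5 genes was -0.05 in the Bdnf pair, with 5 below 0, and 0.25 in the Hgf pair, with 4 above 0.

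In fatty acid synthesis, Acly (ATP citrate lyase, which makes cytosolic acetyl-CoA) was at 217 and 176 CPM in the Bdnf pair (-0.31) and at 414 and 228 CPM in the Hgf pair (-0.86, interval -0.91 to -0.80). Fasn had a ratio of -0.31 in the Bdnf and -0.51 in the Hgf pair. Acaca (acetyl-CoA carboxylase) was at 99 and 92.4 CPM (-0.10) and at 124 and 81.7 CPM (-0.60), and Me1 was at 200.1 and 161 CPM (-0.31) and at 188 and 172 CPM (-0.13). These enzymes were below their control in both pairs, by less than 1.5-fold throughout the Bdnf pair. Acss2, the cytosolic acetyl-CoA synthetase, was at 49.7 and 50.6 CPM (0.03) and at 20.6 and 23.5 CPM, so it was above its control in each pair by less than 1.5-fold, and lower in both Hgf than in both Bdnf libraries.

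**Figure D3:**
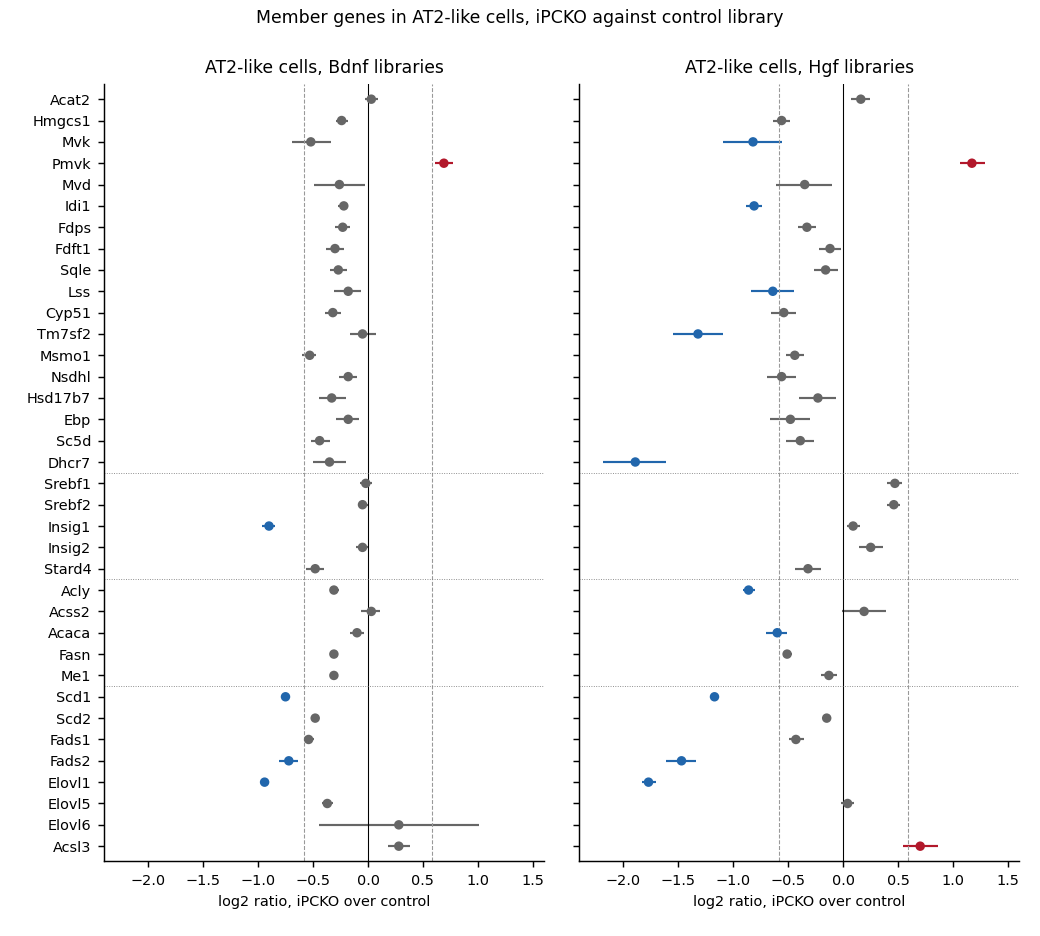
Log2 ratio of iPCKO over control CPM in AT2-like cells for each gene, Bdnf and Hgf libraries, with 95% intervals of counting error, dashed lines at 1.5-fold, red for members at least 1.5-fold higher and blue for members at least 1.5-fold lower. Elovl1, Fads2 and Scd1 are past the line on the low side in both pairs (in the Bdnf pair, not for Scd1 and Fads2 in cells of 3000 to 6000 UMIs), Pmvk on the high side in both, and Insig1 on the low side in the Bdnf pair alone.

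The 2 control libraries also differed from each other. In AT2-like cells of the Hgf control against the Bdnf control, 35 members had a median log2 ratio of 0.41 (-0.09 over 16388 genes), and 12 were at least 1.5-fold higher and 1 lower, beside 10.4% and 16.0% of all genes. Scd1 was 1.44 higher on the log2 scale, Mvd 1.12, Msmo1 0.95, Acly 0.93, Fdps 0.92 and Elovl1 0.91, and Acss2 was at -1.27. For 22 of the 36 genes the controls differed by more than the Bdnf pair did, and for 16 by more than the Hgf pair did. How often this held among all genes was not counted. The Hgf control library held the highest of the 4 values for 24 of the genes, and the Bdnf iPCKO library the lowest for 22, beside 20.4% and 17.8% of the 18598 genes with at least 50 UMIs over the 4 libraries. Both are lox/lox controls, but the floxed gene, the litter and the library all differ, and these cannot be told apart.

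AT2-like cells of both lung iPCKO libraries were less deep than those of their controls, and the members' median ratio in the Bdnf pair was closer to 0 among cells of like depth. In AT2-like cells of 3000 to 6000 UMIs only, a window chosen after the data were seen, 849 cells of the Bdnf control and 3182 of the Bdnf iPCKO library remained, with median UMIs of 5201 and 4888.5. Scd1 was then at 4346 and 3340.2 CPM, a log2 ratio of -0.38, and Fads2 had a ratio of -0.54, both under 1.5-fold, and the median of the members was -0.21 in place of -0.28. Elovl1 (-0.76), Insig1 (-0.79) and Pmvk (0.84) stayed past 1.5-fold in this window. In the Hgf pair, with 4003 and 2694 cells whose median UMIs still differed (4585 and 3881), Scd1 was at 14849 and 7027 CPM (-1.08) and the median was -0.36.

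The same ratios were taken in the other lung cell types. In gCap-like cells of the Hgf pair, 32 members had a median of -0.58, with 16 at least 1.5-fold lower and 0 higher, beside 15.6% and 10.4% of all genes. Median depths were 1749.5 UMIs per cell in the control and 1653 in the iPCKO library. Cyp51, the lanosterol demethylase, was at 27.9 and 4.25 CPM (98 and 17 UMIs; -2.71, interval -3.55 to -1.96), Idi1 at 58.6 and 14.5 CPM (-2.01) and Insig1 at 52.9 and 14 CPM (-1.92, interval -2.38 to -1.48). Stard4 was at 176 and 54.8 CPM (-1.68, interval -1.91 to -1.46) and Srebf2 at 98.2 and 30.0 CPM (-1.71, interval -2.02 to -1.41). All 5 were lower in the Hgf iPCKO library, whereas Srebf2 was above its control in AT2-like cells of that pair. Scd1 was at 189.8 and 63.3 CPM, a change that moved with the free RNA given above. With the free RNA subtracted, 14 of 30 members were lower and 1 higher, beside 16.3% and 10.8% of all genes, with a median of -0.44. In the Bdnf pair gCap-like cells had a median of -0.13, with 2 higher (Pmvk 0.79 and Hsd17b7 0.67) and 0 lower, beside 5.20% and 5.28% of all genes.

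In AT1-like cells the members' medians were near 0 in both pairs, but their summed level differed. It was 4218 CPM in the control and 3505 in the iPCKO library of the Bdnf pair, and 4439 and 5045 CPM in the Hgf pair. Scd2, the largest part of this sum, was at 2895 and 2099 CPM in the Bdnf pair and at 2672 and 2863 CPM in the Hgf pair. In the Bdnf pair, 33 members had a median of 0.02, with 3 higher and 1 lower, beside 12% and 4.45% of all genes. Pmvk was at 6.96 and 32.7 CPM (2.23, interval 1.87 to 2.61), Acsl3 at 8.74 and 22.6 CPM (1.37, interval 1.03 to 1.72) and Acat2 at 13.4 and 22.4 CPM (0.74). Pmvk was thus above its control in AT1-like, AT2-like and gCap-like cells of the Bdnf pair, while in AT1-like cells of the Hgf pair it was at 9.83 CPM in both libraries. In the Hgf pair, 31 members had a median of 0.01, with 4 higher and 4 lower, beside 11.5% and 14.1% of all genes. Elovl5 was at 586 and 1082 CPM there (0.88, interval 0.81 to 0.96), and Scd1 at 119.8 and 42.0 CPM (-1.51), where free RNA alone would give 122 and 31.8 CPM.

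Airway cells of the Hgf pair gave low ratios as well. In club-like cells, 29 members had a median of -0.76, with 16 lower and 1 higher, beside 15.6% and 12% of all genes. The estimated share of free RNA in them was 3.01% in the control (from smooth muscle-like markers) and 8.92% in the iPCKO library (from endothelial-like markers). These estimates rest on different markers and cannot be compared directly. Median depths were 9204.5 and 7180 UMIs. The part of depth and free RNA in the ratios of club-like cells was not tested. Idi1 was at 51.1 and 10.5 CPM (-2.28, interval -2.85 to -1.73) and Hmgcs1, the enzyme that makes HMG-CoA, at 50.6 and 16.9 CPM (-1.58, interval -2.05 to -1.12). In ciliated-like cells, 26 members had a median of -0.49, with 13 lower and 1 higher, beside 9.09% and 13.6% of all genes. Free RNA in ciliated-like cells was estimated at 1.97% in the control (from AT2-like markers) and 3.79% in the iPCKO library (from myofibroblast-like markers), again from different markers. Median depths were 7614 and 5580 UMIs. The part of free RNA and depth in these ratios was not tested either. Hmgcs1 was at 135 and 51.8 CPM (-1.38, interval -1.70 to -1.07) and Sqle (squalene epoxidase) at 141 and 86.0 CPM (-0.71, interval -0.98 to -0.44). These cell types, like gCap-like and AT2-like cells, come from the same 2 suspensions, so they are not independent of each other.

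The lowest median of the Bdnf pair was found among fibroblasts. In adventitial fibroblast-like cells (638 and 839 cells, with median depths of 11483.5 and 6981 UMIs), 34 members had a median of -0.57, with 17 lower and 1 higher, beside 3.66% and 6.58% of all genes. Sqle was at 22.4 and 2.78 CPM (172 and 18 UMIs; -3.01, interval -3.80 to -2.31), Idi1 at 29.6 and 4.32 CPM (-2.78, interval -3.40 to -2.21) and Srebf2 at 88.2 and 43.3 CPM (-1.03, interval -1.23 to -0.82). Acaca was the 1 member past 1.5-fold higher, at 28.7 and 43.5 CPM (0.60). Among 495 and 301 matrix fibroblast-like cells, 24 members had a median of -0.38, with 8 lower and 1 higher, beside 6.99% and 9.78% of all genes. Insig1 was at 58.2 and 27.8 CPM (-1.07, interval -1.71 to -0.47) and Acaca at 31 and 75.4 CPM (1.28, interval 0.79 to 1.78). In myofibroblast-like cells, 31 members had a median of -0.20. Over cell types with at least 10 members counted, the median was below 0 in 13 of 15 types of the Bdnf pair, from -0.57 in adventitial fibroblast-like to 0.13 in aerocyte (aCap)-like cells, and in 10 of 11 types of the Hgf pair, from -0.76 in club-like to 0.01 in AT1-like cells.

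**Figure D4:**
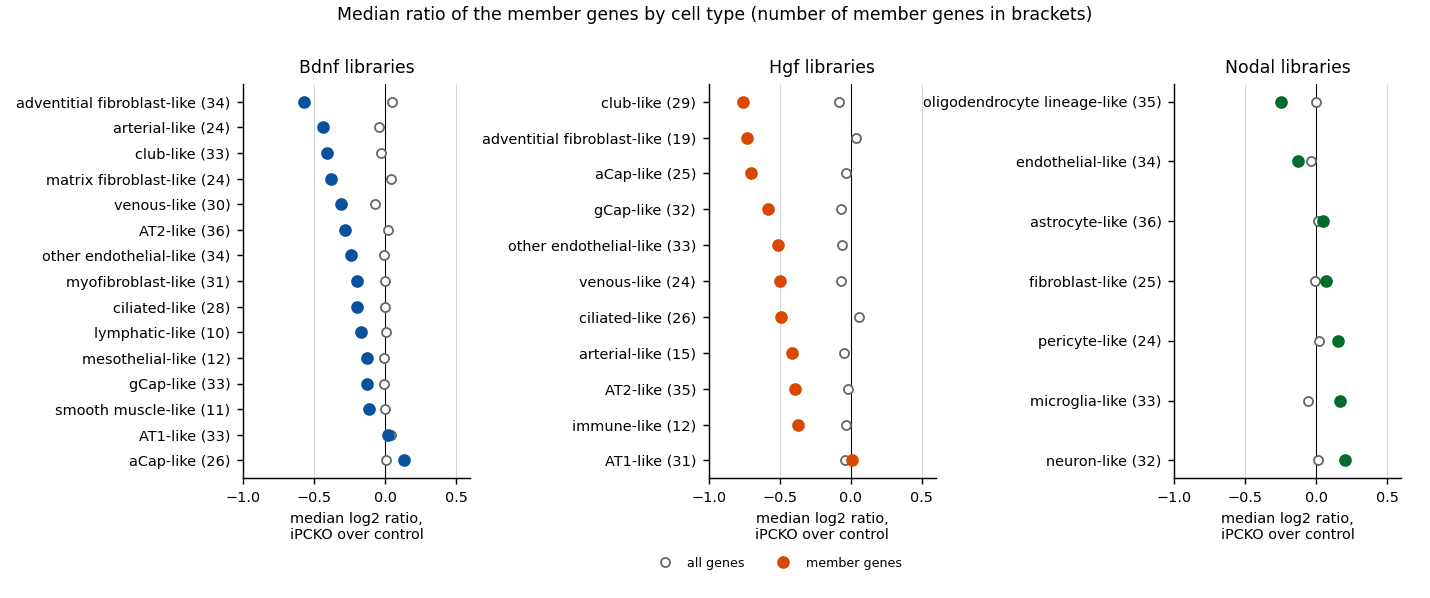
Median log2 ratio of iPCKO over control CPM of the members (filled) and of all genes counted (open) for each cell type with at least 10 members counted, in the Bdnf, Hgf and Nodal pairs. The members' medians lie below 0 in 13 of 15 types of the Bdnf pair, 10 of 11 of the Hgf pair and 2 of 7 of the Nodal pair.

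In the cortex, oligodendrocyte lineage-like cells (20 and 46 cells in the Nodal control and iPCKO libraries) and astrocyte-like cells (734 and 809 cells) had the highest summed levels, 14416 and 12180.3 CPM and 11735 and 12104 CPM. Microglia-like cells were at 1212 and 1447 CPM and endothelial-like cells at 1174 and 1073 CPM. In astrocyte-like cells no gene took as large a share as Scd1 did in AT2-like cells: Scd2 supplied 18% and 18.5% of the members' UMIs and Msmo1 13.6% and 12.9%. Against endothelial-like cells, with the 2 libraries as replicates and 1 residual degree of freedom, 33 of 36 members were higher in astrocyte-like cells and 3 lower, at a median log2 fold of 3.57, beside 38.9% and 36.2% of all genes. Against microglia-like cells 33 were higher and 2 lower (median 3.23), beside 38.5% and 35.7% of all genes.

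Msmo1 was at 1595 and 1558 CPM in astrocyte-like cells, a log2 fold of 5.73 over endothelial-like cells (SE 0.17, adjusted p = 5.1e-10). Fads2 was at 447 and 471 CPM (5.90, SE 0.15, adjusted p = 2.1e-10), Sqle at 336 and 371 CPM (4.92, SE 0.13, adjusted p = 2.8e-10), Fasn at 114 and 124 CPM (5.14, SE 0.20, adjusted p = 3.3e-09) and Scd1 at 146 and 172 CPM (7.61, SE 0.17, adjusted p = 2.0e-10). In endothelial-like cells Scd1 was at 0.633 and 0.827 CPM, where free RNA alone would give 0.391 and 0.191 CPM. Sterol synthesis, desaturation and palmitate synthesis were thus all represented. In microglia-like cells Scd1 had 0 UMIs of 5812168 and of 9870018. Had there been 3 counts per library, its level would be 0.516 and 0.304 CPM. Astrocyte-like cells would then be 283-fold and 566-fold higher. Lower in astrocyte-like than in endothelial-like cells were Ebp (-1.61, adjusted p = 1.5e-06), at 11.2 and 14.8 CPM in astrocyte-like cells, Elovl1 (-0.71, adjusted p = 2.3e-04), at 32.6 and 31 CPM, and Stard4 (-0.64, adjusted p = 3.6e-04), at 70.8 and 89.5 CPM. Against microglia-like cells Ebp (-1.68, adjusted p = 2.8e-07) and Elovl1 (-0.77, adjusted p = 3.0e-04) were lower too, and Acly did not pass the test (0.00, adjusted p = 0.99).

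Between the Nodal libraries, astrocyte-like cells gave close values. All 36 members were counted, at a median of 0.05 (20 above 0 and 16 below), and 0 were past 1.5-fold in either direction, beside 3.92% higher and 3.78% lower among all genes. Among members whose interval left out 0, the farthest from it were Insig1 at 435 and 589.8 CPM (0.44, interval 0.38 to 0.50), Hsd17b7, a sterol ketoreductase, at 149 and 203 CPM (0.44, interval 0.33 to 0.55), Stard4 (0.34, interval 0.18 to 0.50), Acsl3 at 738 and 611 CPM (-0.27, interval -0.33 to -0.22), Acss2 at 114 and 94.7 CPM (-0.26, interval -0.40 to -0.12) and Mvk at 46.3 and 38.9 CPM (-0.25, interval -0.47 to -0.03). Ebp, with few UMIs, had a ratio of 0.40 with an interval from -0.01 to 0.82.

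In microglia-like cells (899 and 1431 cells), 9 of 33 members were at least 1.5-fold higher in the Nodal iPCKO library and 0 lower, beside 5.40% and 7.72% of all genes, with a median of 0.17 (-0.06 over all genes). Of the 9, 6 were sterol enzymes, which made up 18 of the 33 members counted. Hsd17b7 was at 9.81 and 26 CPM (1.41, interval 0.99 to 1.85), Sqle at 11.7 and 29.5 CPM (1.33, interval 0.95 to 1.74) and Idi1 at 30.5 and 58.1 CPM (0.93, interval 0.69 to 1.18). Hmgcs1 was at 50.6 and 85.4 CPM (0.76, interval 0.56 to 0.95), Stard4 at 31.1 and 49.4 CPM (0.67, interval 0.42 to 0.92) and Sc5d at 27.5 and 43.3 CPM (0.65, interval 0.39 to 0.92). Each of these genes was higher in the iPCKO library. Median depths of the microglia-like cells were 6177 (control) and 6427 (iPCKO) UMIs, and with free RNA subtracted the members' median was 0.22. Fads2, the 1 member of the 9 whose interval included 0, had a ratio of 0.67 (interval -0.09 to 1.49). In endothelial-like cells (821 and 1490 cells), 34 members had a median of -0.13, with 0 higher and 1 lower, beside 3.16% and 4.57% of all genes. The 1 lower was Fasn, at 4.43 and 2.30 CPM (-0.95, interval -1.61 to -0.28). Among the other members whose interval left out 0, Fdps (-0.49), Scd2 at 215 and 162 CPM (-0.41), Elovl1 (-0.23), Ebp (0.21) and Elovl5 (-0.19) were the farthest from it there.

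**Figure D5:**
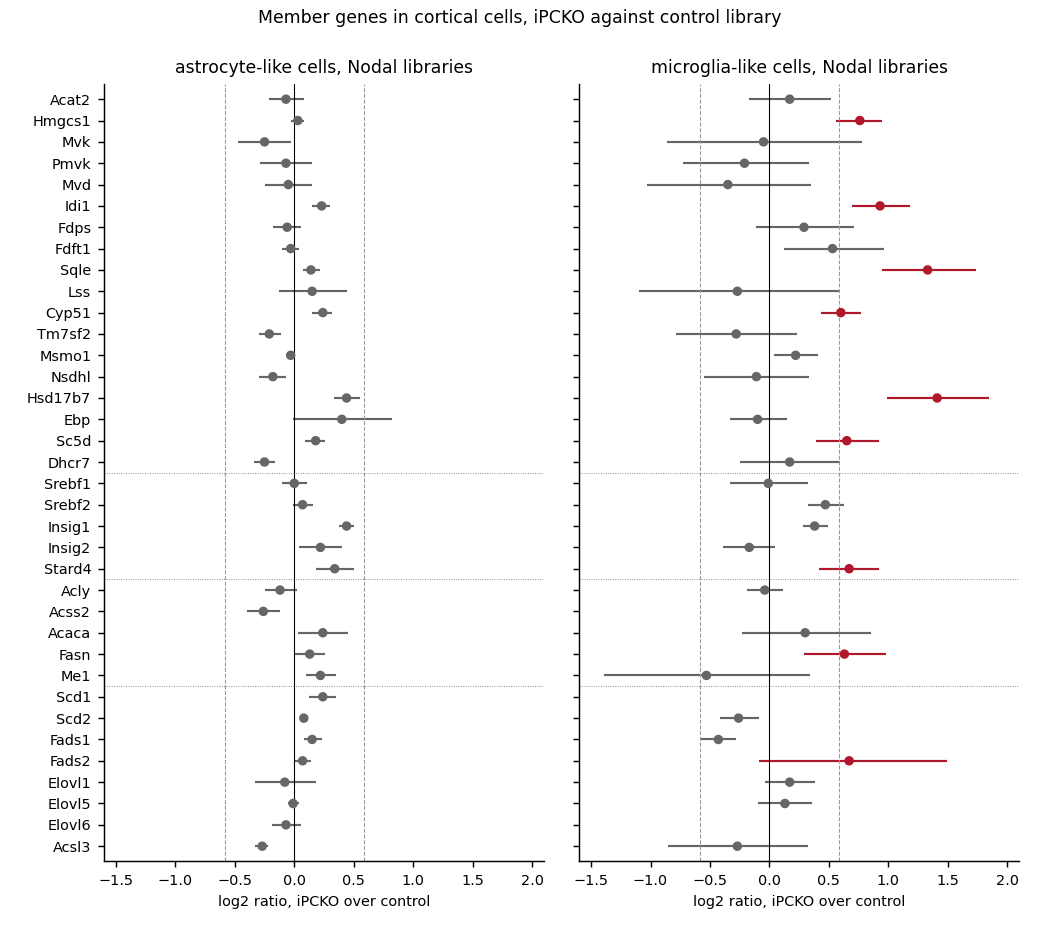
Log2 ratio of Nodal iPCKO over control CPM for each gene in astrocyte-like and microglia-like cells, with 95% intervals of counting error, dashed lines at 1.5-fold and red for members at least 1.5-fold higher. In astrocyte-like cells every gene lies within the lines, and in microglia-like cells 9 genes lie past the upper one, led by Hsd17b7 (1.41) and Sqle (1.33).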

How the data were processed

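Single cells were captured with BD Rhapsody and 3' tags were sequenced from 4 lung and 2 cortex libraries, each 1 pool of 2 mice. The authors aligned the reads to GRCm39 with STAR 2.7.10a (STARsolo), kept every barcode and divided reads that map to several genes with an expectation-maximisation step, so the deposited values are estimated counts: 8.50% to 9.95% of the entries were not whole (tolerance 0.001). Of the UMIs of single members, 8.02% lay in such entries for Scd1, 9.78% for Fdft1 and 6.90% for Fdps. Total UMIs per library were 33889545 to 186701379.

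The 36 members and all lists were chosen with earlier results of these data known. Markers were fixed, but the thresholds of the marker gates (score 0.3, at least 3 markers) were set after cell numbers per gate were seen, though not the members' values. Barcodes of 2 classes were left out as possible doublets, and no doublet caller was run. Free RNA was estimated from barcodes of 10 to 100 UMIs. Its share in a cell type was the lowest ratio, over marker sets of other types, of marker level in the type to that in these barcodes. The marker set giving the lowest ratio could differ between the libraries of a pair. The level of a gene is its UMIs in the cells of 1 type and library as CPM (UMIs per 1000000 UMIs of those cells), without division by gene length. Cell types were compared with edgeR 4.0.16 (quasi-likelihood, robust, TMM, filterByExpr, Benjamini-Hochberg over all genes tested, threshold 0.05) on sums rounded to whole numbers, with the library as a block. These tests take the libraries as replicates, but the spread of each gene is drawn toward a spread shared across genes. Their p-values therefore rest on that shared spread as well as on how the difference between cell types varied from pool to pool. The smallest p-values in the lung rest largely on the shared spread. In the lung these pools mix control and iPCKO genotypes. In the cortex 1 residual degree of freedom remains, so the spread there rests on information shared across genes. Each SE is the size of the log2 fold divided by the square root of the F statistic of the test. Control and iPCKO were compared by the log2 ratio of CPM with the exact conditional 95% interval, which, like all intervals here, covers counting error only. The scripts were tested on simulated data. Members were named by a fixed rule: the 10 largest ratios in AT2-like cells of each lung pair, the 6 largest in 3 cortical types, in each case with at least 50 UMIs in the pair and an interval that left out 0, and the 5 largest folds in each direction in the AT2-like against gCap-like and astrocyte-like against endothelial-like tests; the remaining names were chosen after their values were seen. Alternatives included DESeq2 1.42.0, other gates and minimums, Leiden clusters (leidenalg 0.10.2) and subtraction of free RNA. Python 3.11.15 and R 4.3.3 were used. Some genes of the neighbouring lists are not reported here by name.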

Additional observations from a re-analysis of the deposited data

Results flagged for a closer look

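In AT2-like, AT1-like, gCap-like and matrix fibroblast-like cells, the Bdnf and Hgf ratios had opposite signs, both intervals left out 0 and the ratios were at least 0.58 apart on the log2 scale in 4 cases, and in none was the difference tested, since each pair is 1 library against 1. Insig1 in AT2-like cells had a log2 ratio of iPCKO over control of -0.90 in the Bdnf pair and 0.09 in the Hgf pair. With AT2-like cells taken from Leiden clusters the Hgf value was -0.17, so there the direction of Insig1 in the Hgf pair depends on how the cells are chosen. Scd1 in AT1-like cells had 0.19 in the Bdnf pair and -1.51 in the Hgf pair, at levels of 40.1 to 119.8 CPM beside 31.8 to 122 CPM that free RNA alone would give. Scd2 in gCap-like cells had -0.18 and 0.44, and Elovl5 in gCap-like cells -0.38 and 0.28.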

How the results depend on the processing

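Of the values computed under other settings, 87 medians, 33 counts past 1.5-fold, 258 ratios of single members and 42 counts of tested members stayed close to those reported (medians within the typical half-width of the members' intervals, counts within 1.5 times and single ratios within 0.2 on the log2 scale), and 2 medians, 3 counts and 12 single ratios moved. With Leiden clusters in place of marker gates, the median in AT2-like cells of the Hgf pair was -0.58 (0.09 over all genes) in place of -0.39, with 16 members at least 1.5-fold lower and 1 higher in place of 10 and 2. Single ratios there were -1.50 for Scd1, -1.69 for Fads2, -1.10 for Acly, -1.06 for Idi1, -0.70 for Fads1, -0.66 for Msmo1, 0.41 for Acsl3 and 0.87 for Pmvk, and 2 members were higher in the Bdnf pair in place of 1. In AT2-like cells of 3000 to 6000 UMIs, a window added after the data were seen, the median of the Bdnf pair was -0.21, with Scd1 at -0.38, Dhcr7 at -0.06 and Stard4 at -0.14, and Fads2, at -0.54, fell short of 1.5-fold though it moved by less than 0.2. The cause was not tested. Leaving out 1 lung library left 32 to 34 members called between AT2-like and AT1-like cells, 35 to 36 against gCap-like and 30 to 34 against matrix fibroblast-like cells. Without the replicate block 31, 34 and 29 members were called in the lung tests and 36 and 35 in the cortical ones, and over all genes 2951 were higher and 2567 lower between AT2-like and AT1-like cells in place of 4835 and 4116. DESeq2 called 4296 genes higher in astrocyte-like than in endothelial-like cells in place of 6473. With no filter beyond 1 UMI, 6116 genes were higher and 3767 lower between AT2-like and AT1-like cells. No paired analysis was possible for control against iPCKO because each genotype has 1 library. Depth limits the members of rare cell types: in matrix fibroblast-like cells of the Hgf pair 5 members reached 50 UMIs.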

Other observations

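Lists of neighbouring lipid genes were read in AT2-like cells beside the synthesis genes, with the same ratios and no test. Of 12 genes of fatty acid oxidation and PPAR targets, 11 were above 0 in each lung pair, with medians of 0.16 (Bdnf) and 0.40 (Hgf). The share of all genes above 0 was not counted. At least 1.5-fold higher were 3 of the 12 in the Bdnf pair and 5 in the Hgf pair. Of all genes in AT2-like cells, 9.17% were higher and 3.35% lower past 1.5-fold in the Bdnf pair, and 13.2% higher and 16.1% lower in the Hgf pair, the shares to read each list against. Pdk4, the kinase that turns off pyruvate dehydrogenase, was at 1.82 CPM in the Bdnf control and 10.1 in the Bdnf iPCKO library (log2 ratio 2.48, interval 2.16 to 2.81) and at 0.438 and 32.5 CPM in the Hgf pair (12 and 464 UMIs; 6.21, interval 5.39 to 7.18). Angptl4, an inhibitor of lipoprotein lipase, was at 3.14 and 7.98 CPM (1.34, interval 1.07 to 1.62) and at 0.401 and 6.37 CPM (3.99, interval 3.08 to 5.04). For Pdk4 and Angptl4 both iPCKO libraries were above both controls, and how many of all genes showed this order was not counted. The controls also differed from each other, at 1.82 and 0.438 CPM for Pdk4 and at 3.14 and 0.401 CPM for Angptl4 (Bdnf and Hgf control).

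Of 13 genes of sterol uptake, efflux and LXR targets, 2 were at least 1.5-fold higher in the Bdnf pair and 0 lower, and 4 higher and 1 lower in the Hgf pair. Mylip, a ligase that marks the LDL receptor for degradation, was at 23.3 and 40.0 CPM (0.78, interval 0.67 to 0.89) and at 17.4 and 63.2 CPM (1.86, interval 1.70 to 2.02). Of 8 other genes of sterol synthesis and SREBP processing, 0 were past 1.5-fold in the Bdnf pair and 2 were lower in the Hgf pair, among them Aacs at 81.5 and 28.5 CPM (-1.51, interval -1.67 to -1.36). Of 14 other genes of fatty acid synthesis and activation, 5 were lower and 1 higher in the Hgf pair, and 0 in the Bdnf pair. Of 12 genes of phosphatidylcholine and triglyceride assembly, 1 was higher and 1 lower in the Bdnf pair and 2 were higher and 0 lower in the Hgf pair. Lpin1 was at 39.6 and 26.2 CPM in the Bdnf pair (-0.60) and Lpin2 at 244 and 459 CPM in the Hgf pair (0.91). Dgat2 was higher in both pairs, at 3.01 and 6.55 CPM (1.12) and at 1.42 and 5.81 CPM (2.03, interval 1.46 to 2.62).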
